A study of Homo sapiens with 6 samples.

Results

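The phospholipid acyltransferase mRNAs around *LPCAT3* were examined in RNA bound by IGF2BP3 in Merkel cell carcinoma (MCC) cells. The 10 genes, *LPCAT1*, *LPCAT2*, *LPCAT3*, *LPCAT4*, *MBOAT1*, *MBOAT2*, *MBOAT7*, *AGPAT1*, *AGPAT2* and *AGPAT3*, were found by their names among the 60655 genes of the count table. The set was chosen by a readout: *LPCAT3* had been seen to be higher in the IGF2BP3 immunoprecipitation (IP) than in the IgG IP of these same libraries, and its relatives were then added by family. The fold changes of all 10 genes are therefore given as a description, with no p. Where a fit over all genes called some of them, this is stated beside the share of all genes called and counts as no support.

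The study asked which RNAs IGF2BP3, an oncofetal RNA-binding protein, holds in MCC cells. WaGa cells, a line derived from a Merkel cell polyomavirus-positive MCC, were lysed, and RNA was recovered with 5 µg of an IGF2BP3 antibody or of IgG as negative control and sequenced with 150 bp paired-end reads (RIP-seq). There were 3 IgG IP and 3 IGF2BP3 IP libraries, described as independent replicates, and all 6 came from untreated WaGa cells of WT genotype kept in the same serum-containing medium. The model is thus 1 cell line with its native IGF2BP3, and nothing in the labels ties IPs that share a replicate number to 1 common lysate.

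Glycerophospholipids are built with fatty acids that are later exchanged: a phospholipase removes the fatty acid at the middle carbon, and an acyltransferase puts another on the resulting lysophospholipid. This cycle, named after Lands, sets how saturated or polyunsaturated a membrane is. Its enzymes fall into 2 unrelated structural groups, the membrane-bound O-acyltransferases (MBOAT), which include LPCAT3 in spite of its name, and the AGPAT-type enzymes, which share a histidine and an aspartate at the active site and also hold the enzymes that make phosphatidic acid in de novo synthesis. LPCAT3 places polyunsaturated acyl chains into phosphatidylcholine and is controlled by liver X receptors in liver and intestine.

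The coding sequences show the split between both groups. The AGPAT-type motif, a histidine and an aspartate with 4 residues between them, was searched in the translated canonical transcripts, and it was found in all 6 AGPAT-type genes and in 0 of the 4 MBOAT-type genes, *LPCAT3* among them. The first match of each gene is printed to show which of the genes named LPCAT carry it, on the coding strand, with the histidine and aspartate codons in capitals (GRCh38, GENCODE version 44).
LPCAT1, chr5:1494770-1494793, minus strand, exon 3: cctCACtcgtcctacttcGACgcc
LPCAT2, chr16:55528498-55528521, plus strand, exon 3: cctCATtcaacattctttGATgga
LPCAT4, chr15:34365081-34365104, minus strand, exon 3: ccaCACtccactttctttGACccc
AGPAT1, chr6:32170941-32170964, minus strand, exon 3: aacCACcagagctctctcGATctg
AGPAT2, chr9:136677427-136677450, minus strand, exon 2: aacCACcagagcatcctgGACatg
AGPAT3, chr21:43968050-43968073, plus strand, exon 4: aacCACaacttcgagatcGACttc
In these first matches, the codon before the histidine encoded asparagine in *AGPAT1*, *AGPAT2* and *AGPAT3*, and proline in *LPCAT1*, *LPCAT2* and *LPCAT4*. The histidine was residue 135 of 534 in LPCAT1, 146 of 544 in LPCAT2, 129 of 524 in LPCAT4, 104 of 283 in AGPAT1, 98 of 278 in AGPAT2 and 96 of 376 in AGPAT3. *LPCAT2* held a second match at residue 407, in exon 12, with asparagine before the histidine. How often the pattern occurs in other proteins was not tested, so a match alone does not mark an active site.

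Among the LPCAT enzymes, protein identity set LPCAT3 apart. LPCAT3, of 487 residues, was 23.5% identical to MBOAT7, 22.7% to MBOAT1 and 21.9% to MBOAT2, and 17.4% to LPCAT1, 18% to LPCAT2 and 18.1% to LPCAT4. The AGPAT-type enzymes were not all close to each other: AGPAT1 was 17.7% identical to AGPAT3 and 12.3% to LPCAT2, the lowest value of any pair. The closest pairs were MBOAT1 and MBOAT2 at 50.7%, AGPAT1 and AGPAT2 at 46.6%, and LPCAT1 and LPCAT2 at 42.4%.

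*LPCAT3* lies at chr12:6976185-7018477 on the minus strand (GRCh38). Its canonical transcript has 13 exons and 2235 bases, of which 1464 are coding and 719 belong to the 3′ untranslated region. Short CA-rich words known from IGF2BP binding studies were counted with T for U, namely CATAC and its relatives CATTC and also CATCA, as well as the word ACACA. The word TGGAC, which holds the core of the site where adenosine is methylated in mRNA, was counted too. Each word was read on the sense strand only and on its own, even where words overlap. Such words are common: among 11867 canonical transcripts of tested protein-coding genes, CATAC was present in 69.8%, CATTC in 86.3%, CATCA in 92.7%, ACACA in 87.9% and TGGAC in 94.2%. *LPCAT3* stood high in density for CATAC, with 3 matches or 1.34 per kb (percentile 94.3), and for CATTC, with 4 matches (percentile 91.9). CATCA had 4 matches (percentile 77.4), and density was low for ACACA, with 1 match (percentile 20), and for TGGAC, with 1 match or 0.45 per kb (percentile 13.1). The CATAC and TGGAC matches, all in coding exons, are printed with 10 bases on each side and the word in capitals, to show where the transcript holds them.
CATAC, chr12:6983457-6983481, minus strand, exon 2: ccacctcttcCATACctttacaggc
TGGAC, chr12:6981836-6981860, minus strand, exon 4: cgatatcaagTGGACaatgccacat
CATAC, chr12:6981136-6981160, minus strand, exon 6: agaaatatgcCATACgtggtgttcc
CATAC, chr12:6981013-6981037, minus strand, exon 6: agctgattgaCATACcaggaaagat
*AGPAT1* and *MBOAT7*, next in fold change, differed from *LPCAT3* in CATAC and TGGAC, but not in every word. *AGPAT1* held 5 TGGAC (percentile 88.0 for density) and *MBOAT7* held 6 (percentile 92.2), both with 0 CATAC. In CATCA *AGPAT1* was near *LPCAT3*, with 4 matches (percentile 78.6), while *MBOAT7* had 0. For CATTC *AGPAT1* held 3 matches (percentile 79.8) and *MBOAT7* 2 (percentile 52.1). *AGPAT3* and *LPCAT4* each held 1 CATAC and stood in the middle for TGGAC (percentiles 62.7 and 63.4), and *LPCAT1* had 10 TGGAC (percentile 91.5) and 0 CATAC. *LPCAT2*, the gene with the lowest fold change in counts, held 5 CATAC (percentile 85.8) and 10 CATTC (percentile 93.4). No word was dense in every gene with a high fold change, and a match describes the letters of the transcript, not a bound site.

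The libraries held 9758759 to 14886414 counts. Values are normalized CPM, counts scaled to library size and by the trimmed mean of M-values, so each is a share of its library, and no input library was analysed here. In these bulk libraries, more bound RNA in every cell and more cells holding it cannot be told apart. Replicate 1 stood apart in both groups: protein-coding genes took 73.92% and 75.93% of the TPM, a measure scaled by transcript length and library total, in its IgG IP and IGF2BP3 IP, against 84.56% to 87.11% in replicates 2 and 3. All 12 MCC markers searched, such as *ATOH1*, *CHGA* and *KRT20*, passed the filter on low counts, and their summed TPM was 2014 to 3029 in IgG IP and 2366 to 3152 in IGF2BP3 IP. Markers of other cell types were low except for *DCN*, a matrix proteoglycan of fibroblasts, with 479 to 762 counts. Of 6 fibroblast markers it alone passed the filter, *COL3A1* was at 0, and their summed TPM was 35.83 to 54.09 in IgG IP and 29.2 to 47.31 in IGF2BP3 IP. Of the blood cell markers none passed, *PTPRC* and *CD3E* being at 0, with a summed TPM of 0.09 to 0.36 and 0.1 to 1.98, and of 6 keratinocyte and melanocyte markers 2 passed, *KRT14* and *MLANA* being at 0, with 1.01 to 1.45 and 0.96 to 1.87.

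All 10 acyltransferase mRNAs passed the filter, with 14507 genes tested in all. Of the 10, 7 had a positive log2 fold change of IGF2BP3 IP over IgG IP, beside 7091 of all 14507 tested genes. *LPCAT3* was the highest at 0.93, *AGPAT1* and *MBOAT7* followed at 0.62 each, and *LPCAT2* was the lowest at -0.33. The median log2 fold change was 0.26 over the 10 genes, 0.22 without *LPCAT3* and -0.01 over all tested genes. With a call set at a fold change of at least 1.5 and an adjusted p under 0.05 by the quasi-likelihood test of edgeR, *LPCAT3* and *AGPAT1* were called higher, beside 1.16% of all tested genes. In normalized CPM, 4 of the 10 genes, *LPCAT3*, *AGPAT1*, *MBOAT7* and *LPCAT4*, had each IGF2BP3 IP library above each IgG IP library, beside 12% of all tested genes, and 0 of the 10 had each one below, beside 8.69%. Since the genes were selected on this contrast, nothing is read from these counts.

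**Figure D1:**
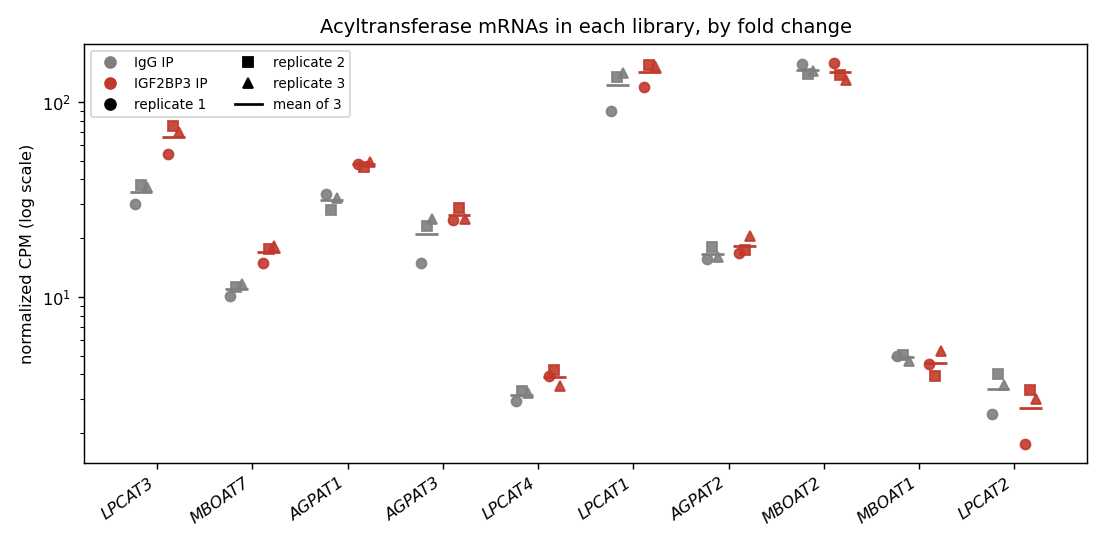
Normalized CPM (log scale) of the 10 acyltransferase mRNAs in each of the 3 IgG IP (grey) and 3 IGF2BP3 IP (red) libraries, with circles, squares and triangles for replicates 1 to 3 and a line at each mean, ordered by fold change. *LPCAT3* runs from 30.0 to 37.5 in IgG IP and from 54.1 to 74.9 in IGF2BP3 IP, while *MBOAT2*, at 138.4 to 155.9 and 129.4 to 158.2, overlaps.

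Among the MBOAT-type enzymes, *LPCAT3* had normalized CPM of 30.0, 37.5 and 36.5 in IgG IP replicates 1 to 3 and of 54.1, 74.9 and 70.0 in IGF2BP3 IP. Every IGF2BP3 IP library was above every IgG IP library, and replicate 1 was the lowest of its group on both sides. The mean was 34.7 ± 4.05 (SD, n = 3) in IgG IP and 66.3 ± 10.9 (SD, n = 3) in IGF2BP3 IP, a log2 fold change of 0.93 with a standard error (SE) of 0.14. Within replicate numbers the ratio was 1.80, 2 and 1.92, and with replicates 2 and 3 alone the log2 fold change was 0.97. By log2 fold change *LPCAT3* ranked 171 among the 14507 tested genes (percentile 98.8). The counts behind these values ran from 277 to 559 in IgG IP and from 644 to 991 in IGF2BP3 IP.

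*MBOAT7*, which places arachidonic acid into phosphatidylinositol, is encoded at chr19:54173412-54189882. It had normalized CPM of 10.1, 11.2 and 11.6 in IgG IP and of 14.9, 17.7 and 18.2 in IGF2BP3 IP. The groups did not overlap, and replicate 1 was again the lowest in both. The means were 10.96 ± 0.792 and 16.94 ± 1.75 (SD, n = 3 each), and the ratio within replicate numbers was 1.48, 1.58 and 1.57. The log2 fold change was 0.62 (SE 0.14), from 93 to 234 counts a library. *MBOAT7* was not called in the edgeR fit that gave this fold change. It was called with the replicate number as a block, beside 3.56% of all tested genes. DESeq2 called it too, beside 2.22% of the genes to which it gave an adjusted p.

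*MBOAT2* and *MBOAT1* transfer mainly monounsaturated chains, to lysophosphatidylethanolamine among other acceptors. *MBOAT2* had normalized CPM of 155.9, 138.4 and 144.3 in IgG IP and of 158.2, 137.9 and 129.4 in IGF2BP3 IP. The groups overlapped, and the log2 fold change was -0.04 (SE 0.10). *MBOAT1* had 4.99, 5.03 and 4.68 in IgG IP and 4.53, 3.93 and 5.28 in IGF2BP3 IP, from 46 to 75 counts. These groups overlapped as well, with a log2 fold change of -0.10 (SE 0.19). This pair, with the closest protein sequences of the set, had fold changes near 1, and *LPCAT3* and *MBOAT7* were the MBOAT-type mRNAs above them. A relation between protein identity and fold change was not tested.

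**Figure D2:**
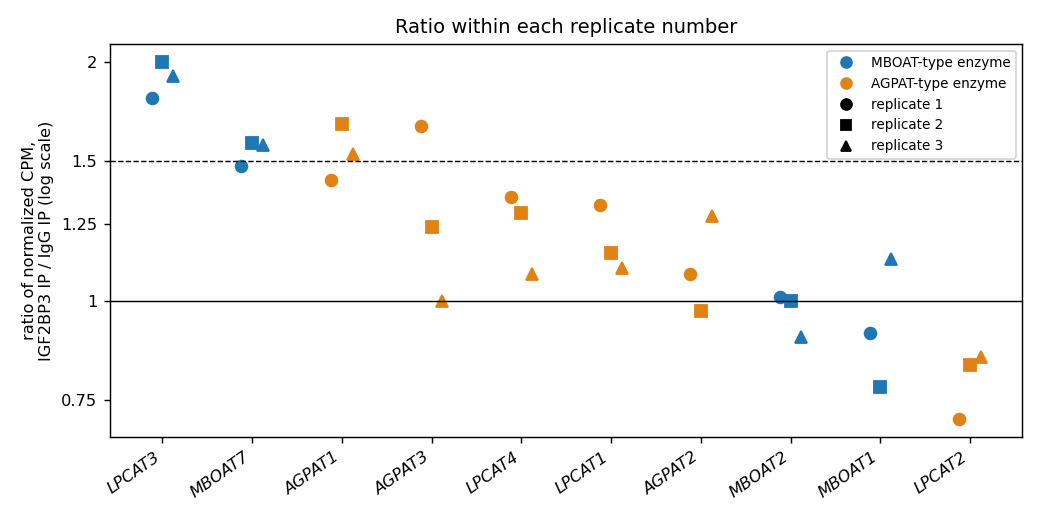
Ratio of normalized CPM in the IGF2BP3 IP to that in the IgG IP with the same replicate number (log scale), with circles, squares and triangles for replicates 1 to 3, blue for MBOAT-type and orange for AGPAT-type enzymes, a solid line at 1 and a dashed line at 1.5. *LPCAT3* lies at 1.80 to 2 for replicate numbers 1 to 3, *MBOAT7* at 1.48 to 1.58 and *AGPAT1* at 1.42 to 1.67, while *AGPAT3* spreads from 1.00 to 1.66.

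Of the AGPAT-type enzymes of de novo synthesis, which turn lysophosphatidic acid into phosphatidic acid, *AGPAT1* had the highest fold change. It is encoded at chr6:32168212-32178096, on the minus strand. Its normalized CPM was 33.7, 27.7 and 32.2 in IgG IP and 47.9, 46.4 and 49.2 in IGF2BP3 IP. The groups did not overlap, and replicate 1 was the highest IgG IP library here, unlike for *LPCAT3*. The means were 31.2 ± 3.10 and 47.8 ± 1.40 (SD, n = 3 each), the ratios within replicate numbers 1.42, 1.67 and 1.53, and the log2 fold change 0.62 (SE 0.11; 0.68 with replicates 2 and 3 alone).

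*AGPAT2*, whose loss causes congenital lipodystrophy, had 15.6, 18 and 16.1 normalized CPM in IgG IP and 16.9, 17.4 and 20.6 in IGF2BP3 IP. The groups overlapped, with a log2 fold change of 0.14 (SE 0.13), and by protein sequence AGPAT2 is the closest relative of AGPAT1 in the set. *AGPAT3*, which accepts polyunsaturated chains, had 14.9, 23.2 and 25.2 in IgG IP and 24.7, 28.7 and 25.2 in IGF2BP3 IP. Here the ratio was 1.66 in replicate 1, 1.24 in replicate 2 and 1.00 in replicate 3, so that the log2 fold change of 0.31 (SE 0.19) came down to 0.16 with replicates 2 and 3 alone.

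The lysophosphatidylcholine acyltransferases of AGPAT type were lower in fold change than *LPCAT3*. *LPCAT1*, the enzyme of dipalmitoyl phosphatidylcholine in lung surfactant, had normalized CPM of 89.9, 134.3 and 139.9 in IgG IP and of 118.6, 153.8 and 153.5 in IGF2BP3 IP. Each IGF2BP3 IP library was above the IgG IP library of its number, at ratios of 1.32, 1.15 and 1.10, but the groups overlapped because replicate 1 was low in both. The log2 fold change was 0.22 (SE 0.17). *LPCAT4*, which acts on lysophosphatidylethanolamine among other acceptors, had 2.93, 3.28 and 3.23 in IgG IP and 3.95, 4.23 and 3.50 in IGF2BP3 IP, from 27 to 56 counts. Its groups did not overlap in normalized CPM, and its log2 fold change was 0.30 (SE 0.20). *LPCAT2*, which also makes platelet-activating factor, had 2.49, 4.02 and 3.55 in IgG IP and 1.76, 3.32 and 3.01 in IGF2BP3 IP, from 21 to 60 counts. Its groups overlapped, and its log2 fold change was -0.33 (SE 0.30). The ratio within replicate numbers was 0.71, 0.83 and 0.85 in normalized CPM but 0.67, 1.13 and 1.36 in TPM, so its direction was not settled.

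Levels of the 10 mRNAs were ranked against each other only in TPM, which takes transcript length into account, and levels in the IgG IP describe RNA left on control beads rather than the cell's total RNA. In IgG IP the order of mean TPM was *MBOAT2* at 37.9 ± 8.70, *LPCAT1* at 36.6 ± 13.7, *LPCAT3* at 19.8 ± 5.44, *AGPAT1* at 18.6 ± 3.17, *AGPAT2* at 14.7 ± 3.70, *AGPAT3* at 7.03 ± 3.26, *MBOAT7* at 6.24 ± 2.13, *LPCAT4* at 2.81 ± 0.747, *MBOAT1* at 1.30 ± 0.221 and *LPCAT2* at 0.93 ± 0.14 (SD, n = 3 each). Of neighbours in this order, *AGPAT2* and *AGPAT3*, *MBOAT7* and *LPCAT4*, and *LPCAT4* and *MBOAT1* had ranges over the libraries that did not overlap. The ranges of *LPCAT1* and *LPCAT3*, of *AGPAT1* and *AGPAT2* and of *MBOAT1* and *LPCAT2* overlapped, but the first of each pair was higher within each of the 3 libraries. *MBOAT2* and *LPCAT1*, *LPCAT3* and *AGPAT1*, and *AGPAT3* and *MBOAT7* changed places between libraries and did not differ beyond their spread. In IGF2BP3 IP, *LPCAT3* had 28.2, 48.9 and 45.95 TPM, in the same range as *LPCAT1* at 31.34, 54.36 and 53.34 and *MBOAT2* at 33.53, 42.46 and 46.49.

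**Figure D3:**
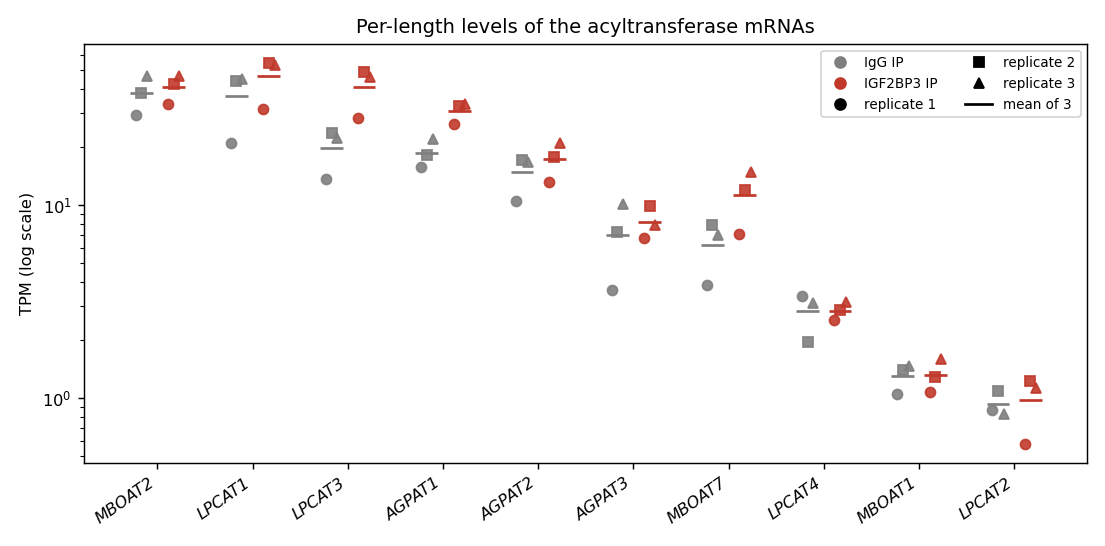
TPM (log scale) of the 10 acyltransferase mRNAs in each library, grey for IgG IP and red for IGF2BP3 IP, with circles, squares and triangles for replicates 1 to 3 and a line at each mean, ordered by the mean in IgG IP. *LPCAT3* moves from 13.61 to 23.66 TPM in IgG IP up to 28.2 to 48.9 in IGF2BP3 IP, into the range of *MBOAT2* and *LPCAT1*.

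In IgG IP, *LPCAT3* had 13.61, 23.66 and 22.26 TPM, below each IGF2BP3 IP library, and ratios of 2.07, 2.07 and 2.06 within replicate numbers. Its share of the summed TPM of the 10 mRNAs was 13.25%, 14.73% and 12.71% in IgG IP and 18.74%, 21.91% and 20.11% in IGF2BP3 IP, without overlap. *AGPAT1* had 15.71, 18.24 and 22.0 TPM in IgG IP and 26.27, 32.6 and 33.35 in IGF2BP3 IP. *LPCAT3* and *AGPAT1* were the 2 of the 10 genes with each IGF2BP3 IP library above each IgG IP library in TPM, beside 9.64% of all tested genes. *MBOAT7*, with 3.83, 7.9 and 6.98 against 7.06, 11.94 and 14.82, overlapped, since its IGF2BP3 IP replicate 1 lay below its IgG IP replicate 2. *LPCAT4*, with 3.36, 1.96 and 3.11 against 2.53, 2.86 and 3.13, overlapped too, and its mean TPM hardly differed, at 2.81 and 2.84.

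Fold changes were also computed with a correction for the base composition of the transcripts, which lowered those of *AGPAT1* and *MBOAT7* more than that of *LPCAT3*. Among tested protein-coding genes the median GC content was 47.8%, and it was 52.0% in *LPCAT3*, 58.4% in *AGPAT1*, 64.0% in *MBOAT7* and 66.0% in *AGPAT2*. With a correction of each library for GC content, the log2 fold change of *LPCAT3* was 0.85 (SE 0.13), that of *AGPAT1* 0.45 (SE 0.11) and that of *MBOAT7* 0.40 (SE 0.13). *AGPAT2* went from 0.14 to -0.10 and *MBOAT2* from -0.04 to 0.05, both within about 1 SE of 0. With the correction *LPCAT3* was the 1 gene of the 10 called, beside 0.566% of all genes fitted. With the replicate number as a block *LPCAT3*, *AGPAT1* and *MBOAT7* were called higher, beside 3.56% of all tested genes. DESeq2 called the same 3 genes higher, beside 2.22% of the genes to which it gave an adjusted p.

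**Figure D4:**
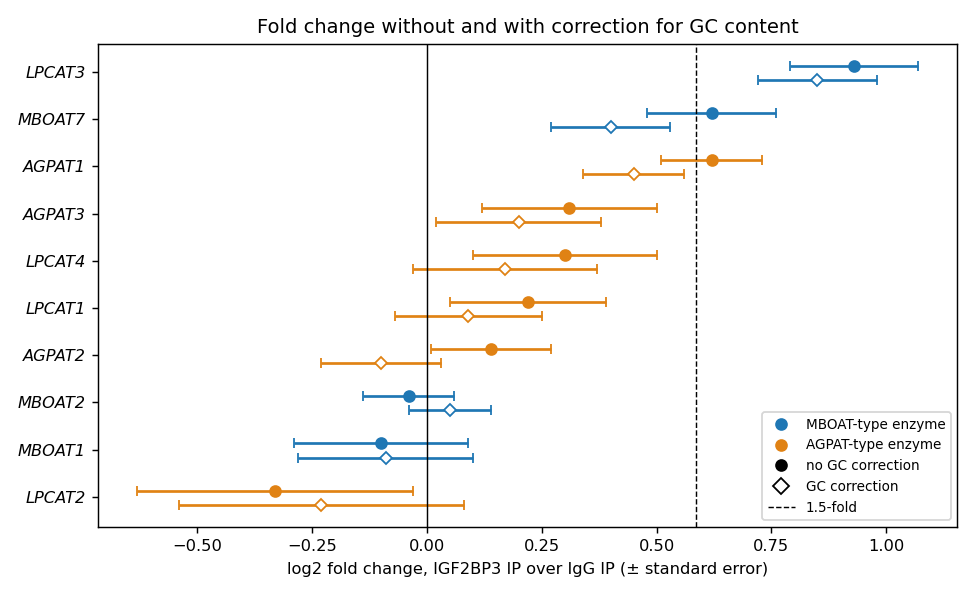
Log2 fold change of IGF2BP3 IP over IgG IP from edgeR with its standard error, without (filled circles) and with (open diamonds) correction for transcript GC content, blue for MBOAT-type and orange for AGPAT-type enzymes, with a dashed line at 1.5-fold. *LPCAT3* stays right of the dashed line at 0.93 and 0.85, while *AGPAT1* moves from 0.62 to 0.45 and *MBOAT7* from 0.62 to 0.40.

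Other genes overlap *LPCAT3* and *AGPAT1* on the opposite strand, and the counts were not stated to use strand. *EMG1*, a ribosome assembly factor, shares 1506 bases of canonical exons with *LPCAT3*. It had 92, 138 and 95 counts in IgG IP and 126, 90 and 100 in IGF2BP3 IP, with a log2 fold change of -0.07 (SE 0.20, adjusted p = 0.92 in edgeR over all tested genes). Relative to its TPM and length, *EMG1* had 0.34 to 0.48 times the counts of the median gene (percentile 8.3), and *LPCAT3* 1.11 to 1.17 times (percentile 66.5). The part of shared reads in either gene was not tested. *PPT2-EGFL8*, a readthrough gene across *AGPAT1* with 1040 shared exon bases, had 1 to 19 counts and a log2 fold change of 0.37 (SE 0.62, adjusted p = 0.85 in edgeR).

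The wider lipid pathway was followed in 5 lists of 110 further genes, of which 90 passed the filter. Their median log2 fold change was 0.05, and 2 were called higher and 0 lower by edgeR, against 9 higher and 0 lower at an unadjusted p under 0.05 with the same fold change minimum. Over all 14507 tested genes, 169 were called higher and 0 lower, and 558 higher and 59 lower passed the unadjusted p. Both called genes belong to the regulators of sterol and fatty acid genes. The lists were chosen with earlier results of these data known, so this shared theme is a description and no independent support. *NCOA6*, a coactivator of nuclear receptors, had 26.8, 29.5 and 26.8 normalized CPM in IgG IP and 44.8, 57.9 and 50.0 in IGF2BP3 IP. It was higher in 3 of 3 IGF2BP3 IP libraries, with a log2 fold change of 0.88 (SE 0.12, adjusted p = 0.015 in edgeR), and was also called with the GC correction at 0.81 (adjusted p = 0.024). *SCAP*, the escort of the sterol regulatory element-binding proteins, had 9.43, 10.7 and 9.20 in IgG IP and 17.6, 16.0 and 15.2 in IGF2BP3 IP. Its log2 fold change was 0.73 (SE 0.13, adjusted p = 0.038 in edgeR), without overlap of the groups, and with the GC correction it was 0.53 (adjusted p = 0.16). Leaving out replicate 2 or replicate 3 of either group, 1 library at a time, left 0 pathway genes and 0 of the 10 acyltransferases called. Over all tested genes, 19 and 7 were called without IgG IP replicates 2 and 3 in turn, and 0 and 23 without those of IGF2BP3 IP.

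None of the other 13 tested regulators was called by edgeR, among them *NR1H2* and *NR1H3*, the liver X receptors that control *LPCAT3* in other tissues, with log2 fold changes of 0.06 (SE 0.12) and 0.41 (SE 0.30). *SREBF2*, which encodes a sterol regulatory element-binding protein, had 0.80 (SE 0.17, adjusted p = 0.072 in edgeR) and was called with the replicate block and with DESeq2. With the GC correction *SREBF2* had 0.63 (adjusted p = 0.19 in edgeR) and was not called. It was named, like both receptors, after its values were seen.

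Of 14 tested further acyltransferases, 0 were called by edgeR and 0 reached an unadjusted p under 0.05 with the fold change minimum, and by DESeq2 and with the replicate block 0 were called too. Their median log2 fold change was -0.02, with -0.06 (SE 0.08) for *LPGAT1*, which acts on lysophosphatidylglycerol, and -0.13 (SE 0.14) for *TMEM68*, the most abundant of them in TPM. *AGPAT4* and *AGPAT5*, named for their family and not by the rule, had 0.13 (SE 0.25) and -0.08 (SE 0.08). None of the 22 tested genes of head group synthesis was called by edgeR (1 at an unadjusted p under 0.05 with the fold change minimum, 0 by DESeq2). At any fold, 6 of the 22 had an unadjusted p under 0.05 in edgeR, beside 1859 of all 14507 tested genes. These were 0 of 14 further acyltransferases, 5 of 15 phospholipases, 4 of 24 fatty acid genes and 6 of 15 regulators. The most abundant head group genes, *ETNK1*, an ethanolamine kinase, and *PTPMT1*, a phosphatase of cardiolipin synthesis, had -0.19 (SE 0.10) and 0.07 (SE 0.11). *PTDSS1*, a phosphatidylserine synthase named after its values were seen, had normalized CPM of 81.95 ± 1.488 in IgG IP and 114.5 ± 1.871 in IGF2BP3 IP (SD, n = 3 each), without overlap. Its log2 fold change of 0.48 (SE 0.07, adjusted p = 0.021 in edgeR) was under the fold change minimum.

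The phospholipases that open the cycle gave 0 calls among 15 tested genes by edgeR and by DESeq2, with 2 at an unadjusted p under 0.05 with the fold change minimum. *PLA2G12A*, a secretory phospholipase, had -0.14 (SE 0.08), and *LYPLA1*, a lysophospholipase, -0.17 (SE 0.11). Of 24 tested genes of fatty acid activation, desaturation and elongation, 0 were called by edgeR (3 at an unadjusted p under 0.05 with the fold change minimum), and *SCD* and *ELOVL5*, which desaturate and lengthen fatty acids, had -0.08 (SE 0.35) and -0.15 (SE 0.08). DESeq2 called 2.22% of the genes to which it gave an adjusted p higher, and the replicate block 3.56% of all tested genes. Each called 3 genes of this list, *ELOVL1*, *FASN* and *TECR*, at log2 fold changes in edgeR of 0.73 (SE 0.15), 0.98 (SE 0.30) and 0.60 (SE 0.16). The replicate block also called *ETNK2* and *PNPLA6*. With the GC correction none of these was called, with *ELOVL1*, *FASN* and *TECR* at 0.61, 0.76 and 0.40 (adjusted p = 0.13, 0.43 and 0.46 in edgeR). The groups of *FASN* overlapped in normalized CPM, with 38.5 in IGF2BP3 IP replicate 1 and 40.4 in IgG IP replicate 2. Those of *ELOVL1* and *TECR* did not. These 5 genes were named after their calls were seen.

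Among 3948 tested genes within 2-fold of *LPCAT3* in mean CPM, those whose profile over the 6 libraries lay nearest to it were *DAG1*, which encodes dystroglycan, *GNA11*, a G protein alpha subunit, and *UBAP2L*, a ubiquitin-associated protein. The root mean square difference of centred log2 CPM was 0.059, 0.062 and 0.067, against a median of 0.509. The nearest of the other 9 acyltransferases was *MBOAT7* at 0.174, followed by *AGPAT1* at 0.276, and the farthest was *LPCAT2* at 0.641. The profile holds the contrast that chose *LPCAT3*, so this order is a description.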

How the data were processed

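RIP-seq was performed in WaGa cells with 3 IgG IP and 3 IGF2BP3 IP libraries, grouped by their labels. The authors aligned reads to GRCh38 with STAR 2.7.9a and quantified them with RSEM on GENCODE version 37. They deposited raw counts per gene, TPM and FPKM. The deposited counts were whole numbers without normalization, the deposited TPM were used for levels per length, and the deposited FPKM were read but gave no result. The program behind the counts and its strand setting are not given in the sources used here, so overlapping genes are uncertain.

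Genes were filtered with filterByExpr, scaled with TMM and fitted in edgeR 4.0.16 under R 4.3.3 (quasi-likelihood test) on all 6 libraries with condition as the only term. A call needed a fold change of 1.5 or more and an adjusted p (Benjamini-Hochberg) under 0.05 over all 14507 tested genes. The SE is the log2 fold change divided by the square root of F. The 10 genes, the pathway lists and the marker lists were chosen with earlier results of these data known. Named genes were the 10 acyltransferases, overlapping genes with at least 10 counts in a library, called genes of each list or otherwise its 2 highest in TPM, and the 3 nearest profiles.

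Deviations from the group means correlated between the 2 libraries of each number (r = 0.57, 0.28 and 0.23 over genes). Replicates 2 and 3 crossed at 0.28 and 0.27, so these values told only replicate 1 apart. The numbers were still treated as pairs in the replicate block. Replicates of 1 group differed beyond sampling noise in each pair (chi-square per degree of freedom 2.2 to 22.35). The p-values measure the spread between these IPs of 1 cell line. Positions, transcripts, GC content and words were read from GENCODE version 44 (canonical transcripts, GRCh38), where 60481 of 60655 identifiers and all 10 genes were found. Alternatives were DESeq2 1.42.0, RLE factors, library totals only, 2 other filters, the replicate block, a loess GC correction (span 0.5), limma-trend from limma 3.58.1 with a pseudocount of 1 or 0.1 added to TPM before log2, and leaving out each library. A fit of replicates 2 and 3 alone was added after replicate 1 was seen to stand apart. Scripts were tested on simulated data.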

Additional observations from a re-analysis of the deposited data

How the results depend on the processing

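The log2 fold change of *LPCAT3* was 0.83 to 1.06 over 17 alternatives, within 1 SD of replicates of 0.93 in each, and it was called in 11 of them. It was not called without IgG IP replicate 2 or 3, without IGF2BP3 IP replicate 2 or 3, or by limma-trend on TPM. *AGPAT1* ran from 0.45 to 0.72 (called in 9) and *MBOAT7* from 0.40 to 0.84 (called in 5). All are refits of the same libraries that chose the genes, so these calls count as no support. Over the alternatives, 0 to 532 of all genes were called. Of 170 alternative values of the 10 genes, 156 moved by less than the replicate SD and 14 by more, the latter with the GC correction or on TPM.

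The number of genes called was 169 and became 281 with DESeq2, 360 with no filter beyond 1 count, 532 with the replicate block, 82 with the GC correction, 305 with the GC correction and replicate block, 474 with replicates 2 and 3 of each group (chosen after seeing the data) and 0 by limma-trend on log2(TPM + 1) and log2(TPM + 0.1), where 476 higher and 34 lower and 617 higher and 70 lower passed an unadjusted p under 0.05 at 1.5-fold. Leaving out 1 library gave 0 to 244: 19 and 7 without replicate 2 and 3 of the IgG IP, 23 without IGF2BP3 IP replicate 3, and 0 without its replicate 2 (473 higher and 62 lower at the unadjusted p). Acyltransferases called were 2, and 1 with the GC correction with or without the replicate block, 0 by either limma-trend fit, and 0 to 3 leaving out 1 library. Pathway genes called were 2, and 6 with DESeq2, 6 with no filter, 8 with the replicate block, 1 with the GC correction, 4 with the GC correction and replicate block, 8 with replicates 2 and 3, 0 by either limma-trend fit, and 0 to 3 leaving out 1 library. The cause was not tested. The TPM fits moved the median log2 fold change of all genes to 0.11 and 0.13. Counts of 21 to 60 limit *LPCAT2* and *LPCAT4*.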
